A study of Mus musculus with 15 samples.

Results

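Gata4, Gata6, Zfpm2, Tbx20 and Mef2c encode 5 transcription regulators of the developing heart, and their transcripts were examined for binding by SAM68 (Khdrbs1), a STAR protein that contacts A- and U-rich RNA and takes part in splicing. The 5 genes were taken by name, and their sites were all entries of the deposited lists whose Ensembl gene ID belongs to 1 of them, out of 7949 gene IDs with a site on any day. They were chosen with earlier results of these data known. The study used iCLIP2 to map SAM68 in mouse E14 stem cells at day 0, in embryoid bodies from hanging drops at day 3, and in embryoid bodies grown in spheroid plates at day 10, with 5 libraries per day. All samples come from the same E14 line, with no mutation or transgene named in the labels. Maintenance medium held 15% serum, LIF and the inhibitors CHIR-99021 and PD0325901, which act on the kinases GSK3 and MEK, and differentiation medium is given with 10% serum. In iCLIP2, ultraviolet light links a protein to the RNA it touches, an antibody recovers the complex, and the place where reverse transcription stops marks the crosslink.

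GATA4 and GATA6 are zinc finger proteins that bind the DNA letters GATA and act in heart muscle precursors and in extraembryonic endoderm. ZFPM2, also called FOG2, is a multi zinc finger cofactor that binds GATA factors and modulates their activity, and loss of it in mice disturbs heart morphogenesis. TBX20 is a T-box factor of the cardiac progenitor and the developing chambers, and MEF2C is a MADS-box factor of the anterior heart field and of skeletal muscle, neurons and endothelium. A SAM68 site in such a transcript says that the protein touched that RNA and not what it did there.

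The day 0 list held 29740 sites, the day 3 list 28266 and the day 10 list 74287, each site 5 nt wide. A list holds called positions only, so nothing is known of the spread between the 5 libraries of a day, and days were not compared by a test. Intervals are exact 95% intervals that cover counting error only, and neighbouring sites in a gene are not independent. The number of sites depends on how much of an RNA was present, and RNA abundance was not measured here. Fewer cells of a type and less RNA per cell cannot be told apart in these bulk samples, nor can the day and the culture format.

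The 5 genes held 0 sites on day 0, 4 on day 3 and 366 on day 10. This is 1.42 (0.386 to 3.62) and 49.3 (44.4 to 54.6) sites per 10000 sites of the day 3 and day 10 lists. Gata4 was the gene with sites on day 3, and the others were first listed on day 10.

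Gata4, which encodes the GATA factor of heart and endoderm (ENSMUSG00000021944), was listed with 0 sites on day 0, 4 on day 3 and 111 on day 10. Its share was 14.9 sites per 10000 on day 10, against 1.42 on day 3, a ratio of shares of 10.6 (4.01 to 39.4). On day 10 it ranked 66 of 6345 bound genes by number of sites, while on day 3 it ranked 1611 of 5034. Gata6, its paralog (ENSMUSG00000005836), held 0, 0 and 33 sites, with 4.44 per 10000 on day 10 (3.06 to 6.24). Gata6 was thus absent from the list in which Gata4 first appeared. With 4 sites against 0, however, their day 3 intervals overlapped, at 0.386 to 3.62 per 10000 for Gata4 and 0 to 1.30 for Gata6.

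Zfpm2, the GATA cofactor (ENSMUSG00000022306), held 0, 0 and 144 sites. Its day 10 share of 19.4 per 10000 (16.4 to 22.8) placed it at rank 40 of 6345 bound genes. Tbx20 (ENSMUSG00000031965) held 0, 0 and 46 sites, 6.19 per 10000 on day 10 (4.53 to 8.26), at rank 337. Mef2c (ENSMUSG00000005583) held 0, 0 and 32 sites, 4.31 per 10000 (2.95 to 6.08), at rank 525. Each of the 5 genes therefore had more day 10 sites than 91.4% of the bound genes or more.

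**Figure D1:**
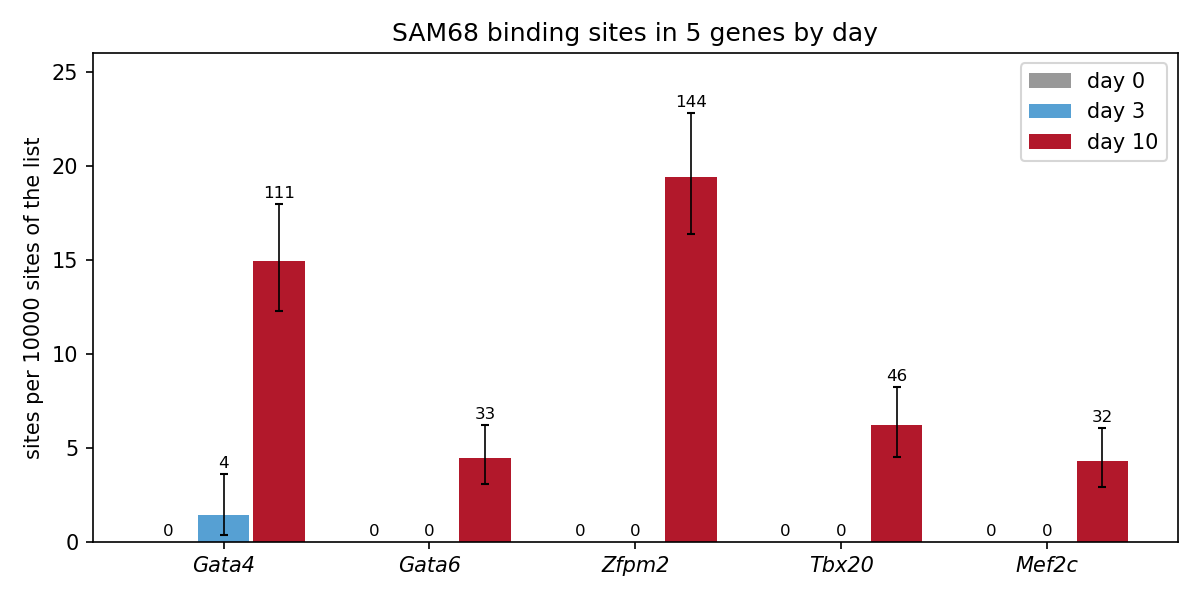
Sites per 10000 sites of each day's list (vertical axis) in the 5 genes on day 0, day 3 and day 10. Numbers are sites, and error bars are exact 95% binomial intervals for counting error, drawn where a gene had a site. The day 10 bars run from 4.31 in Mef2c to 19.4 in Zfpm2, and Gata4 has the 4 sites of day 3.

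A gene was counted as having a larger share where its share was at least 2 times that of the other day, provided that the lists of these days held 10 or more sites in it together. For day 10 over day 0 and for day 10 over day 3 all 5 genes met this rule, as did 34.1% and 29.1% of all genes examined. For genes with no site on the earlier day, reaching 10 sites already meets the rule, so the count of 5 describes the genes and supports nothing further. For day 3 over day 0 none of the 5 had enough sites, and the background was 19.3%. Of the 548 genes with at least 32 sites on day 10, which is the number in Mef2c, 51 (9.31%) had no site on day 0 or day 3. Zfpm2, Tbx20, Gata6 and Mef2c were among these 51. By number of day 10 sites they took ranks 11, 34, 50 and 51 of the 1603 genes listed on day 10 alone.

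Per length of gene, the order of the 5 differed from the order by number. Gata4 held 1.52 sites per kb of gene span on day 10 (1.25 to 1.84), Gata6 0.996 (0.686 to 1.40), Tbx20 0.860 (0.630 to 1.15), Zfpm2 0.320 (0.270 to 0.377) and Mef2c 0.196 (0.134 to 0.277). The intervals of the neighbours Gata4 and Gata6 overlapped, as did those of Gata6 and Tbx20 and, narrowly, those of Zfpm2 and Mef2c, while Tbx20 and Zfpm2 were apart. Spans are those of RefSeq genes in GRCm38.p6 and measure 72.8 kb for Gata4, 33.1 kb for Gata6, 53.5 kb for Tbx20, 449.6 kb for Zfpm2 and 163.1 kb for Mef2c. A span covers all RefSeq transcripts of a gene, predicted ones included.

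The median of the 1701 named protein-coding genes with at least 10 sites on day 10 was 0.313 sites per kb. Gata4 was 4.87 times as dense as this median and ranked 49, Gata6 3.18 times at rank 137 and Tbx20 2.75 times at rank 192. Zfpm2 lay at the median, at 1.02 times, and Mef2c below it, at 0.627 times. A short gene reaches 10 sites only at a high density, so this median depends on the spans of the genes that pass, and each gene was also set beside genes of 0.5 to 2 times its span. Among 941 such genes 5 were denser than Gata4. Zfpm2 was denser than 86.5% of 223 genes of like span, whose median was 0.102 sites per kb, Tbx20 than 91.2% of 890, Gata6 than 89.8% of 630 and Mef2c than 51.3% of 716. The high number of sites in Zfpm2 thus goes with a long gene that is also densely bound for its length, whereas Mef2c lies in the middle of genes of its length, in both cases among genes with at least 10 sites.

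**Figure D2:**
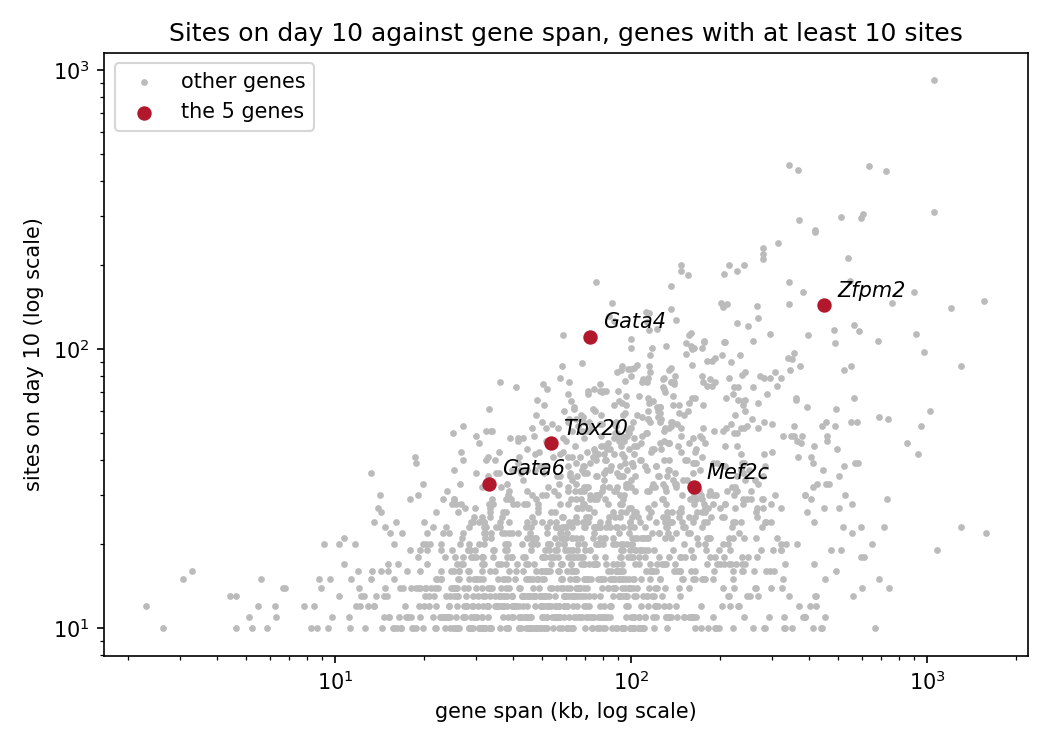
Number of day 10 sites against gene span in kb, both on log scales, for the 1701 named protein-coding genes with at least 10 sites. Gata4, with 111 sites in 72.8 kb, lies near the upper edge of the cloud, and Mef2c, with 32 sites in 163.1 kb, in its middle.

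Within the genes, the sites were spread evenly in Gata6 and Tbx20 and less evenly in Gata4, Zfpm2 and Mef2c. Gata4 is transcribed from the minus strand of chromosome 14 (chr14:63198914-63271712), and its day 10 sites ran from position 63270885 near the start to 63199607 near the end. The stretch from 40% to 80% of the span held 91 of the 111 sites, 48 in its first part and 43 in its second, and the first 40% held 7. The longest stretch without a site, 12.8 kb between 63244891 and 63257673, separated 4 sites near the start from 107 sites over the last 46.0 kb, where the density was 2.33 sites per kb. The densest window of 5 kb lay at chr14:63229868-63234685 and held 25 sites, 22.5% of the gene's total.

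All 4 day 3 sites of Gata4 lay in this densely bound part and recurred on day 10. They were centred at positions 63234996, 63229876, 63226852 and 63217689, and the nearest day 10 centres were 1, 1, 1 and 0 nt away. Between 7 and 9 day 10 sites lay within 1 kb of each. Of all day 3 sites, 25.9% shared at least 1 nt with a day 10 site (25.4 to 26.4), against 4 of 4 in Gata4 (100%, 39.8 to 100). In the 81 other genes with at least 100 sites on day 10 the share was 32.8%. In the reverse direction the 4 sites made up 3.60% of the Gata4 sites of day 10, while 6.36% of day 10 sites in the 81 other genes and 9.90% of all day 10 sites had a day 3 counterpart.

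Gata6 lies on the plus strand of chromosome 18 (chr18:11052510-11085636). Its 33 sites were spread evenly, with 5, 7, 6, 7 and 8 sites in successive stretches of 20% of the span, and the last was centred at 11085556, 0.080 kb before the annotated end. The longest stretch without a site was 4.81 kb. The neighbour Gata6os, a lincRNA read from the other strand, held 0, 0 and 3 sites on the 3 days and was thus listed on the same day as Gata6. Close to Gata4, Fdft1, an enzyme of sterol synthesis, held 4, 4 and 9 sites and Neil2, a DNA glycosylase, 2, 0 and 3. The numbers of these neighbours on the same strand stayed far below the 111 of Gata4.

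Zfpm2 lies on the plus strand of chromosome 15 (chr15:40655042-41104592). Its sites fell into 2 zones, with 42 in the first 20% of the span and 48 between 60% and 80%, and 17, 15 and 22 in the other stretches. The longest stretch without a site, 28.3 kb, lay between positions 40923321 and 40951658, and the 152.9 kb after it held 70 sites at 0.458 per kb, against 0.276 per kb before it. The densest window of 5 kb, chr15:40662340-40665831, began 7.30 kb after the start of the gene with the first of its sites and held 11. The last 30.8 kb of the gene had none.

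Tbx20 lies on the minus strand of chromosome 9 (chr9:24720812-24774303). Its 46 sites covered the gene from 0.905 kb after the start to 0.934 kb before the end, with 12, 9, 8, 7 and 10 sites in successive stretches of 20%. No window of 5 kb held more than 7 of them. Of the 5 genes, Tbx20 and Gata6 had the most even spread, with 15.2% to 26.1% and 15.2% to 24.2% of their sites in every stretch.

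Mef2c lies on the plus strand of chromosome 13 (chr13:83504017-83667079). The stretch from 20% to 40% of its span held 14 of its 32 sites. The densest window, chr13:83536263-83538757, held 9 sites, 8 of them in this stretch and 1 just before it. RefSeq gives promoter windows at 3 separate starts for this gene, at positions 83504034, 83523656 and 83573607. No site lay in the 19.6 kb between the first and the second start, 20 sites lay in the 50.0 kb between the second and the third (0.400 per kb), and 12 lay after the third (0.128 per kb). All 32 sites were therefore downstream of the second start, the first of them 2.84 kb from it.

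The 250 bases before each of these starts are shown because the starts divide the Mef2c sites, and those before the Tbx20 start for comparison. Windows of Gata4, Gata6 and Zfpm2 are not shown. They are RefSeq sequences of GRCm38.p6, written along the gene's strand. Capitals mark the letters GATA, the core that GATA factors recognise, on either strand.
Mef2c, first start, plus strand, chr13:83503784-83504033: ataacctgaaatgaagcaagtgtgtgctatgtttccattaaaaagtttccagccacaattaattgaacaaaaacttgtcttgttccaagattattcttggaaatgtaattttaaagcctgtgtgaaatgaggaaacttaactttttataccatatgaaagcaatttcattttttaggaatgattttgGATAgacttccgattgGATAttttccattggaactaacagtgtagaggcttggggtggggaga
Mef2c, second start, plus strand, chr13:83523406-83523655: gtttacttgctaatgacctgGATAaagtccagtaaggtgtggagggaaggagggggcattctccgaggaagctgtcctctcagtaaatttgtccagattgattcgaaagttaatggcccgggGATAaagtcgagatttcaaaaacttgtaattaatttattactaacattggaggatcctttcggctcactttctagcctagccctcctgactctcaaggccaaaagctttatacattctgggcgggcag
Mef2c, start farthest downstream, plus strand, chr13:83573357-83573606: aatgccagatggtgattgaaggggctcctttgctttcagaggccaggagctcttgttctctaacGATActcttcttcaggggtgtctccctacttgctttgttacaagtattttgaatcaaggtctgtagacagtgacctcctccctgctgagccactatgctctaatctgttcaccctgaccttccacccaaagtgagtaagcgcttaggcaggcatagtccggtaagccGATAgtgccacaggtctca
Tbx20, minus strand, chr9:24774304-24774553: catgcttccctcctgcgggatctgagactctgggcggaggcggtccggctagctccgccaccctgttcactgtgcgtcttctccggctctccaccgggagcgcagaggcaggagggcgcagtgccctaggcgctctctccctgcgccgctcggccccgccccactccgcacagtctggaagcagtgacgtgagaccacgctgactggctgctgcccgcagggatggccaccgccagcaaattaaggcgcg

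Each of the 3 Mef2c windows held GATA 2 times, all on the gene's strand, and the Tbx20 window held none on either strand. Of all 32851 RefSeq promoters, 53.6% held GATA on either strand within 250 bases, so matches in these windows are common. The T-box core TCACAC was found once on the opposite strand before the first Mef2c start and in 12.3% of all promoters. No SAM68 site lay in any of these windows. The Tbx20 window and most of the first Mef2c window lie outside the gene span, so their lack of sites carries no information. A match is a run of letters and not a bound site.

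**Figure D3:**
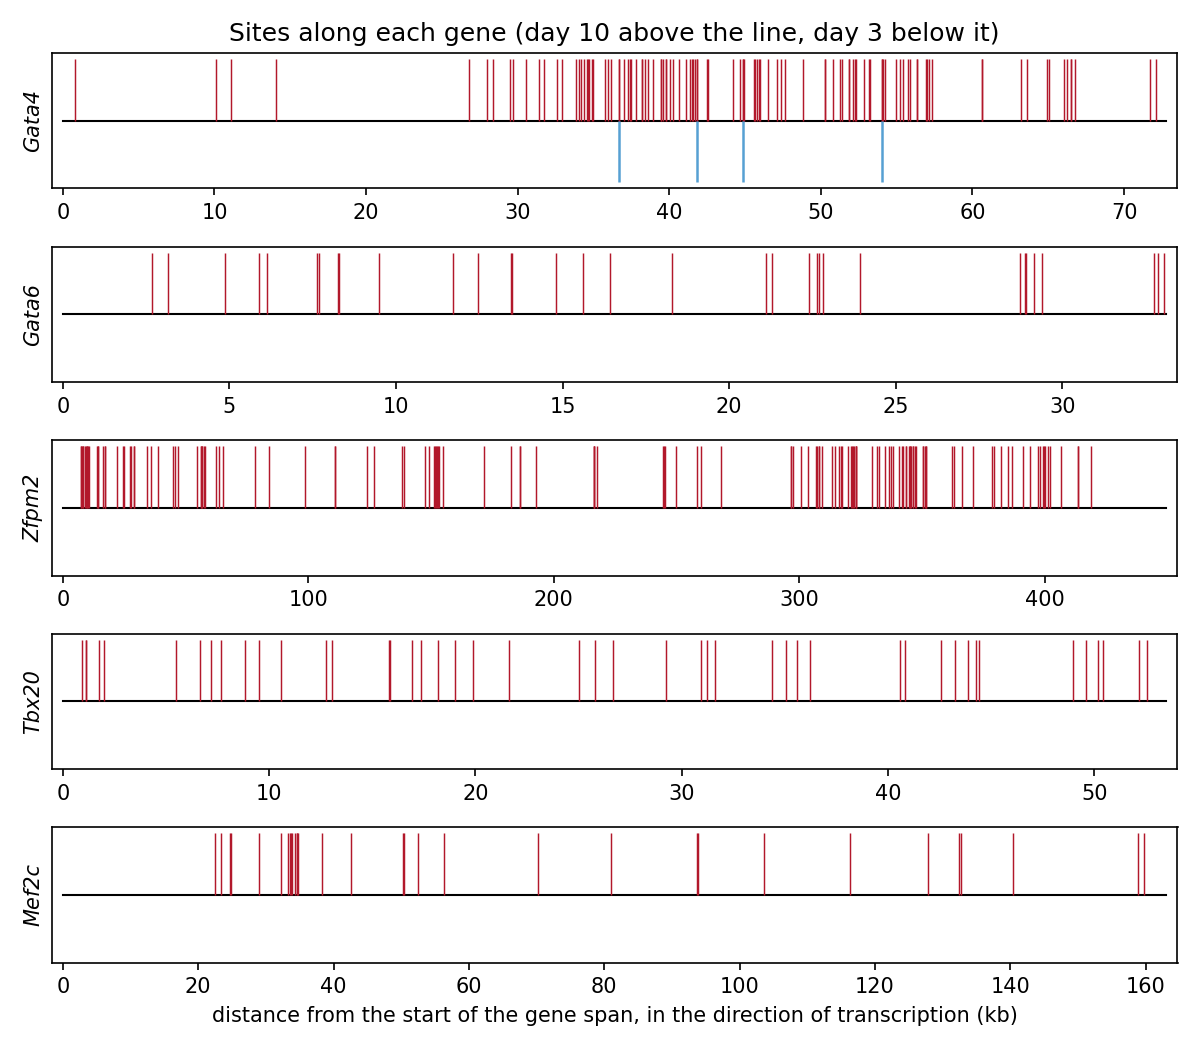
Position of each site in kb from the start of the gene span, in the direction of transcription, with day 10 sites as red lines above the axis and day 3 sites as blue lines below it. In Gata4 the sites crowd into the middle and later part of the gene, in Zfpm2 they form 2 zones, and in Mef2c they begin 22.5 kb from the start.

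Most sites of the 5 genes had no close neighbour, though Gata4 and Gata6 had a larger part of such neighbours than most other genes. A site was counted as grouped where another of the same gene and day lay within 50 nt, centre to centre. In Gata4 23.4% of day 10 sites were grouped, in Gata6 18.2%, in Zfpm2 6.94%, in Mef2c 6.25% and in Tbx20 4.35%, beside a median of 12.0% over the 1695 other genes with at least 10 sites. Gata4 lay above 84.8% of these other genes and Gata6 above 72.3%, while Zfpm2, Mef2c and Tbx20 lay above 31.3%, 29.1% and 26.4%. Gata4 and Gata6 were also the densest of the 5 per kb. A higher density alone brings sites closer to each other, and genes of like density were not compared. No group in the 5 genes had more than 2 sites. The median distance between neighbouring sites was 240.5 nt in Gata4, 670 nt in Gata6, 671 nt in Tbx20, 1005 nt in Zfpm2 and 2016 nt in Mef2c, and 892 nt in the other genes. Together, 29.5% of the sites of the 5 genes lay between 60% and 80% of the span, against 18.8% of sites in the other genes, and Gata4 and Zfpm2 supplied 91 of these 108 sites.

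Genes whose sites ran most like each of the 5 over the 3 days were found among 2767 genes with at least 10 sites in all, by the Euclidean distance between square roots of sites per 10000. Over 3 lists this describes little more than the day 10 number where the earlier days are at 0. The nearest to Gata4 were Pdzrn3, a ubiquitin ligase of the PDZ family, with 0, 4 and 124 sites (distance 0.220), Col4a1, a collagen chain of basement membranes, with 0, 2 and 87, and Dab2, an endocytic adaptor of visceral endoderm, with 0, 3 and 80. Nearest to Gata6 was Mef2c and the reverse (distance 0.0322), followed for Gata6 by Edil3, a matrix protein of vessels, and Ttn, the giant sarcomere protein, both with 0, 0 and 35 sites, and for Mef2c by Gab2, a signalling adaptor, and Pcgf5, a Polycomb component, both with 0, 0 and 31. Zfpm2 lay nearest to Tanc2 (145 sites on day 10), Alcam, a cell adhesion molecule (142), and Prkg1, a cGMP-dependent kinase (140). Tbx20 had the same numbers as Celf2, a splicing regulator, at 46 on day 10, followed by Maml2, a Notch coactivator (45), and Ctdspl, a phosphatase (44). None of the genes named for Zfpm2 and Tbx20 had a site on day 0 or day 3.

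The other genes of the GATA and cardiac network formed a list of 55, of which 31 held a site. Its sites numbered 164, 114 and 891 over the 3 days, or 55.1, 40.3 and 119.9 per 10000. The list as a whole held sites on every day, whereas the 5 genes had none on day 0. By gene, 16 of the 55 had a site on day 0, 14 on day 3 and 31 on day 10. Of the 7949 gene IDs with a site on any day, 5056, 5034 and 6345 had one on these days. The 55 include 24 genes with no site on any day. Of the 31 genes with a site, 16 had one on day 0, unlike the 5 genes. Of the 164 day 0 sites, 69 lay in Tead1 and 36 in Meis2. For day 10 over day 0, 10 of the 16 genes with enough sites had a larger share, 1 a smaller share and 5 neither, beside 34.1% and 24.7% larger and smaller among all genes. For day 10 over day 3, 9 of 15 had a larger share and none a smaller one, beside 29.1% and 21.3%. For day 3 over day 0, 1 of 10 was larger and 3 smaller, beside 19.3% and 20.3%.

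Among relatives of Gata4 and Gata6, the genes Gata1, Gata2 and Gata3, known from blood and other lineages, had no site on any day, and Gata5 had 1 on day 10. Zfpm1, the FOG protein of blood cells, had none, in contrast to the 144 of Zfpm2. Among T-box genes, Tbx5, a factor of the first heart field, held 2 sites on day 10, Tbx2 held 1, and Tbx1 and Tbx18 none. Tbx3, which acts in stem cells and in the conduction system, went the other way to Tbx20, with 13, 0 and 5 sites and a share on day 10 of 0.154 times that of day 0 (0.0430 to 0.460). The first list was thus the one with most Tbx3 sites and the last the one with all Tbx20 sites.

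The relatives of Mef2c differed in when they appeared. Mef2a held 1, 6 and 63 sites, with a day 10 share 25.2 times that of day 0 (4.37 to 1012) and 4.00 times that of day 3 (1.74 to 11.3). Mef2d held 2, 0 and 15 sites, and the interval of its ratio over day 0 included 1 (3.00, 0.698 to 27.1). Mef2b had none. Mef2a was thus listed on every day and held more sites than Mef2c on day 10, at 0.434 per kb against 0.196. Myocd, the myocardin coactivator of SRF in cardiac and smooth muscle, held 0, 0 and 20 sites, and its relatives Mrtfa and Mrtfb held 5, 6 and 19 and 5, 6 and 33.

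Other members of the list with at least 10 sites had sites on day 0 or day 3. Meis1, a homeobox partner of HOX and cardiac factors, held 1, 0 and 75, a day 10 share 30.0 times that of day 0 (5.23 to 1202). Zfhx3, a zinc finger homeobox factor expressed in atria, held 2, 34 and 107 sites, and its share was 17.9 times that of day 0 on day 3 already (4.59 to 154). Smad1 and Smad4, effectors of BMP and TGF-beta signals upstream of GATA genes, held 2, 5 and 32 and 4, 6 and 38 sites, 6.41 times (1.63 to 55.2) and 3.80 times (1.37 to 14.7) their day 0 shares on day 10. Foxp1 held 0, 5 and 23. Nfatc3 with 10, 11 and 27 sites, Hdac4, a repressor of MEF2 proteins, with 6, 5 and 18, and Ep300, an acetyltransferase and GATA4 coactivator, with 5, 6 and 9 had ratios whose intervals included 1 in each comparison. Tead1 and Meis2 were the list members with most sites, 69, 21 and 190 and 36, 1 and 186.

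**Figure D4:**
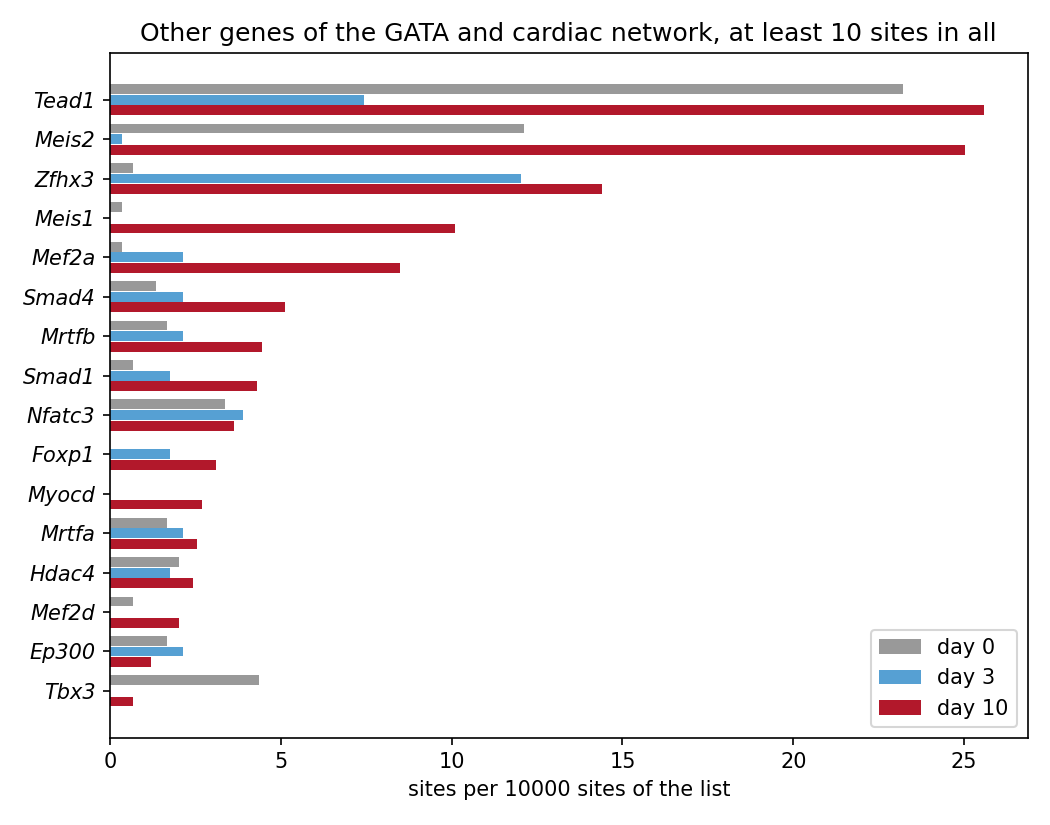
Sites per 10000 sites of each day's list (horizontal axis) in the 16 other genes of the GATA and cardiac network with at least 10 sites, ordered by day 10. Of these genes Myocd is the one with sites on day 10 alone, and Tbx3 has its highest bar on day 0.

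The network genes without a site were short for the most part. These 24 had a median span of 11.8 kb (1.35 to 321.2 kb) and the 16 with at least 10 sites one of 142.2 kb (14.2 to 682.3 kb), while the median of the 5 genes was 72.8 kb. Nkx2-5, the homeobox partner of GATA4 in the heart, spans 6.33 kb and had no site on any day, as did Mesp1, Eomes, Hey1, Hey2 and Irx4. Hand2, a bHLH factor of the right ventricle, held 5 sites on day 10 in 3.54 kb, which is 1.41 per kb, and Hand1 held 1. With 5 sites the density of Hand2 is uncertain, and it falls below the minimum of 10 sites in the density comparisons above. Isl1, the marker of the second heart field, and Srf held 1 site each on day 10.

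Markers of the cell types in which the 5 genes are known to act had the following sites. The 11 cardiomyocyte markers held 0 sites on day 0 and day 3 and 134 on day 10, in 6 genes, with 87 in Ryr2, 35 in Ttn, 6 in Myh6, 3 in Tnnt2, 2 in Actc1 and 1 in Actn2, and none in Myh7, Nkx2-5, Nppa, Myl2 and Myl7. The 12 markers of visceral and primitive endoderm, where GATA4 and GATA6 also act, held 9, 14 and 283 sites. Of those on day 10, 274 lay in Col4a1, Dab2, Lama1 and Lamb1. The other markers had few or no sites on day 10, with 4 in Ttr, 2 in Afp, 1 in Hnf4a and 2 in Cubn, which had 5 on day 3. Sox17, Sox7, Foxa2 and Amn had none on any day. Endothelial markers held 6, 0 and 39 sites, with Kdr and Emcn at 0 on every day. Pecam1 went the other way, with 6, 0 and 0 sites, and Flt1, Tek and Cdh5 held 29, 9 and 1 on day 10. Neural markers held 7, 0 and 28, all in Ncam1, with Sox1, Pax6, Tubb3, Map2, Dcx, Nes and Rbfox3 at 0. Smooth muscle and fibroblast markers held 0, 0 and 26 sites, 17 in Pdgfra and 9 in Acta2, with Myh11, Pdgfrb, Dcn and Tcf21 at 0, and the sites in Tagln could not be assigned to a name. The 7 stem cell markers held 107, 8 and 1. Per 10000 sites of each day's list, the values on day 0, day 3 and day 10 were 0, 0 and 18.0 for cardiomyocyte markers, 3.03, 4.95 and 38.1 for endoderm, 2.02, 0 and 5.25 for endothelium, 2.35, 0 and 3.77 for neural genes, and 0, 0 and 3.50 for smooth muscle and fibroblasts. All 5 of these lists, and not the stem cell list, were thus highest on the same day as the 5 genes. The totals rest on few genes, as 2, 4, 1, 1 and 1 genes of these lists, in this order, held at least 10 sites in all. Of these, Ncam1 had neither a larger nor a smaller share by the 2-fold rule for day 10 over day 0. Among all genes examined, 34.1% were larger and 24.7% smaller. The part of any of these cell types in the sites of the 5 genes was not tested.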

How the data were processed

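The deposited data were 3 lists of SAM68 iCLIP2 binding sites, 1 for each day with 5 libraries, 15 in all. Per the file headers, the authors had assigned sites to genes and removed those in overlapping genes. The submitters' processing notes list SAMtools 1.22.1, UMI-tools 1.1.6, STAR 2.7.11a and bedtools 2.31.1, and GRCh38.p14 beside GRCm38.p5. Neither the site caller nor how libraries were combined is given in the sources used here. The deposited score is 0 for every site and was not used. Lists hold no crosslink counts, so the depth is unknown and a gene without sites has no floor. Depth, the calling and the amount of bound RNA can all change the length of a list.

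Gene IDs were named by position from a RefSeq table of GRCm38.p6, where 1 gene span of the same class held at least 80% of an ID's sites, which named 7315 of 7949 IDs. Coordinates of sites are centres counted from 1. Exon and intron annotation and the sequence around sites were not used here.

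Shares are sites divided by list length. Ratios of shares have exact conditional binomial 95% intervals, shares exact Clopper-Pearson intervals and densities exact Poisson intervals. No test between days was made. The call rule was tested on simulated lists of independent Poisson counts. These lack the dependence between neighbouring sites and the spread between libraries. Genes named are the 5 genes, the 3 nearest in pattern to each and network genes with at least 10 sites, others being named after their values were seen. The genes and lists were chosen with earlier results of these data known. The tools were SciPy 1.17.1, pandas 2.3.3 and NumPy 2.4.6 under Python 3.11.15, with matplotlib 3.10.9 for figures.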

Additional observations from a re-analysis of the deposited data

How the results depend on the processing

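No paired analysis was possible because the deposited lists carry no values per library, and for the same reason no library could be left out and no stricter score could be set. Of 32 alternatives, 16 left the value within its interval or a count within 1.5 times, and 16 moved it. Some alternatives change the quantity itself, such as 20% of the span in place of 10%, another gap or another minimum, so this tally does not measure stability. Other minimums and folds for the calls of the 5 genes are not among the 32. There, 0 sites on the earlier day and at least 32 on day 10 fix the call for every gene but Gata4 over day 3. The ratio of Gata4 for day 10 over day 3 was 10.6, and 9.65 to 27.8 otherwise. Counts over all genes moved with the minimum, which sets how many genes are examined, and their shares of the genes examined moved less. With at least 5 sites the counts were 1293 (34.5%) for day 10 over day 0, 631 (23.0%) for day 3 over day 0 and 1076 (29.2%) for day 10 over day 3. With at least 20 sites they were 481 (35.6%), 132 (18.2%) and 388 (29.6%), beside 827 (34.1%), 304 (19.3%) and 680 (29.1%) with at least 10. At 3-fold and 4-fold, day 3 over day 0 gave 161 (10.2%) and 127 (8.07%), and day 10 over day 3 gave 398 (17.1%) at 4-fold. Where identical positions were required, 25% of the Gata4 sites of day 3 and 11.9% of all day 3 sites recurred on day 10, and 29.9% of all sites with centres at most 20 nt apart. Within 20 nt and 100 nt, 9.29% and 21.9% of the day 10 sites of the 5 genes had a neighbour, beside 12.6% within 50 nt. The first 20% and last 20% of the span held 18.9% and 15.8% of these sites, beside 9.84% and 6.01% in the first and last 10%. With a log2 distance 14 of 15 nearest genes were the same. The letters around sites were not examined, as no genome was used here.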
